A study of Mus musculus with 6 samples.

Results

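The genes described here were 28 members of cholesterol synthesis and of the regulatory system around the transcription factor SREBP2, chosen by gene symbol from what is known of the pathway. On an array of 22690 probe sets, 49 were paired with exactly 1 of these genes, and they measured 25 of the 28 members. All 25 passed the filter on low signals, among 9685 genes that did so. Acat2, Insig1 and Soat2 had no probe set paired with them alone and were not analysed here. Whole livers were profiled from male C57Bl/6 mice of wild type that had been given purified FGF15, recombinant FGF19 or vehicle through the jugular vein. All 3 groups went without food for the 6 h of treatment, vehicle mice included. Each group had 2 arrays. Whether these stood for different animals is not stated in the labels, so a p-value covers the variation of the arrays alone, and that may be technical. Neither hormone's dose nor what the vehicle contained is given in the sources used here.

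Cells build cholesterol from acetyl-CoA by way of mevalonate, isoprenoid diphosphates, squalene and lanosterol. SREBP2, the product of Srebf2, is made as a membrane protein of the endoplasmic reticulum and is carried by the escort protein SCAP to the Golgi, where proteases release its active part. When sterols are plentiful, INSIG proteins hold SCAP in the endoplasmic reticulum and the synthetic genes are transcribed less. Liver makes cholesterol for lipoproteins and for bile acids. The ileum secretes FGF15 in mice and FGF19 in humans, and these orthologous hormones act on the liver through FGFR4 and β-Klotho and repress bile acid synthesis.

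With FGF19, 8 of the 25 measured members fell relative to vehicle and 1 rose. Those that fell were the enzymes Hmgcs1, Idi1, Sqle, Cyp51, Msmo1 and Dhcr7, the transcription factor Srebf2 and the sterol carrier Stard4, and the one that rose was Insig2. With FGF15, 5 members fell (Hmgcs1, Sqle, Msmo1, Dhcr7 and Scap) and again Insig2 alone rose. The falls were between 1.20-fold and 1.85-fold, and 16 members passed the test with FGF19 in neither direction. A member is said to rise or fall at an adjusted p under 0.05 in limma's fit over all genes. Of all genes tested, 6.29% rose and 7.27% fell with FGF19, and 5.91% rose and 6.67% fell with FGF15. The share of members that fell was above these percentages with both hormones, and the single rise was not. With FGF15 that did not hold throughout: without vehicle replicate 1, 0 members and 267 of all genes fell in limma's adjusted test (6 members at an unadjusted p under 0.05), and without the intensity trend 1 member and 393 genes fell. Both comparisons use the same 2 vehicle arrays, so likeness between them is not independent.

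The members' median log2 difference was -0.16 with FGF19, beside -0.07 for all genes tested, and -0.09 with FGF15, beside -0.05. Differences are on the scale log2(signal + 32), which understates changes of dim genes. The vehicle arrays had higher median signals than the other 4, and centring every array on its own median moved the median of all genes to 0.07 with either hormone. Under that scaling the members' median turned positive with FGF15 (0.03) and was -0.01 with FGF19. Relative to the median of all genes, 16 of the 25 members lay lower with FGF19 and 14 with FGF15. Centring shifts all genes of an array by the same amount, so it cannot change these counts. Relative to the same median, Insig2 was higher by 0.95 log2 units with FGF19 and by 0.62 with FGF15, and Sqle differed by -0.81 and -0.46. Under quantile normalization the members' median was -0.11 with FGF15 and -0.15 with FGF19, beside 0.01 and 0.00 for all genes. Under cyclic loess it was -0.12 and -0.16, beside -0.00 for all genes with either hormone. Under either setting 19 of the 25 members lay under the median of all genes with FGF19, and 16 and 15 did with FGF15.

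**Figure D1:**
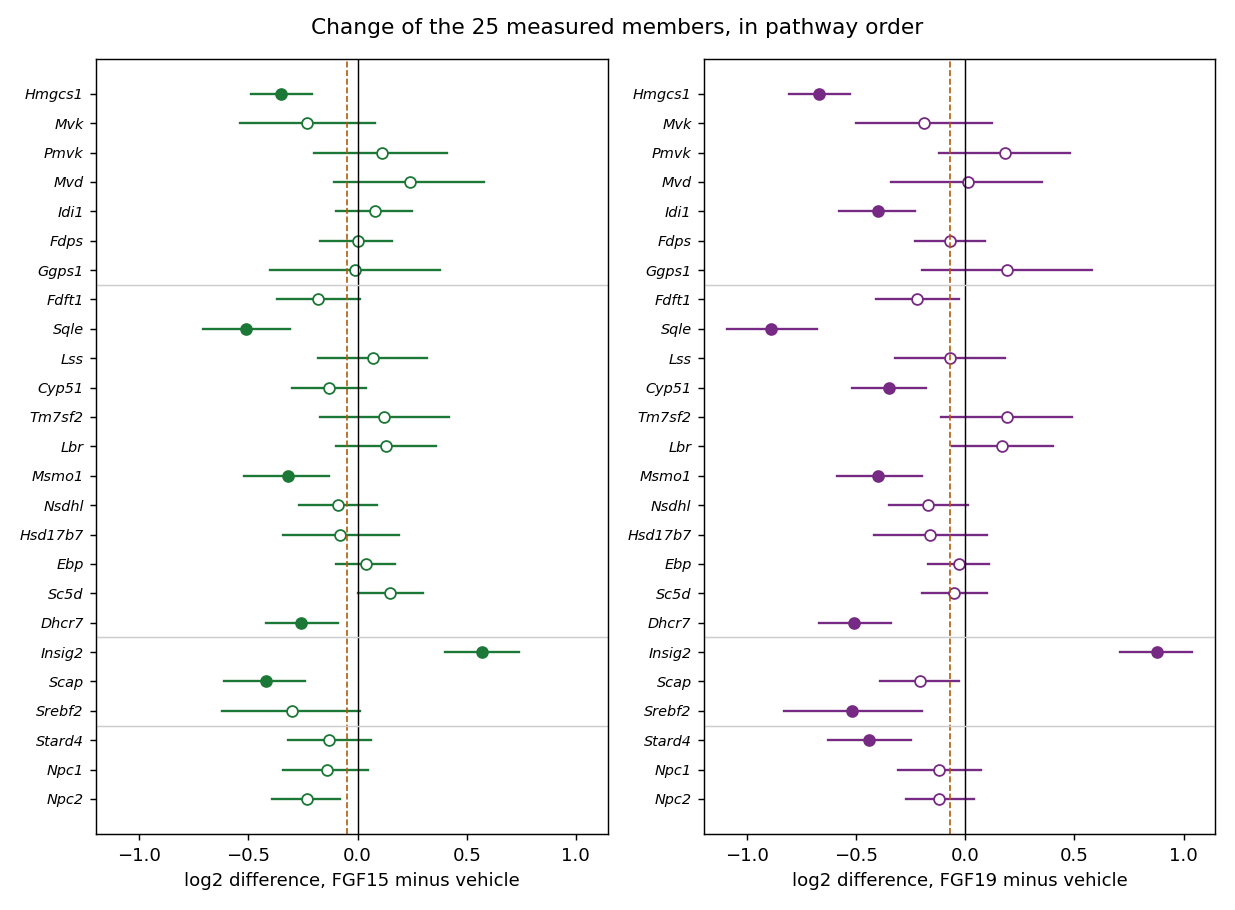
Log2 difference of each of the 25 measured members in FGF15 livers minus vehicle livers (left) and in FGF19 livers minus vehicle livers (right), in the order of the pathway. Points are limma estimates on the log2(signal + 32) scale, bars are 95% confidence intervals, filled points passed the test and the dashed line is the median of all genes. Insig2 lies at 0.57 and 0.88, to the right of all others, and Sqle at -0.51 and -0.89 is the lowest in each panel.

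Known responses to the hormones were present on the arrays. Cyp7a1, which sets the rate of bile acid synthesis, had signals of 91.5 and 89.4 with FGF15 and of 38.2 and 32.1 with FGF19, against 2677 and 2572 with vehicle. Nr0b2 was higher by 1.02 log2 units with FGF15 and by 1.03 with FGF19. Dusp6 and Egr1, genes induced by ERK signalling, were higher by 1.15 and 1.45 with FGF15 and by 2.07 and 4.37 with FGF19. Hepatocyte markers (Alb, Apoa1, Ttr, Cps1 and Hnf4a) were bright on every array, with no signal under 1969.8, and none of the 5 passed limma's adjusted test against vehicle. At an unadjusted p under 0.05, 0 were lower with FGF15 and 4 with FGF19. Their summed signal was 41219 to 44209.7 with FGF15 and 34389 to 44525 with FGF19, against 47201 to 48569 with vehicle. Kupffer cell and macrophage markers were lower, 10 of the 11 measured passing the test with FGF15 and 9 with FGF19. Their summed signal was 3484 to 3608 with FGF15 and 3499 to 3534 with FGF19, against 6427 to 6525 with vehicle, and none of them was at 0. In whole liver, fewer cells of a type and less RNA per cell cannot be told apart. Of 7 stellate markers Col1a1 and Col3a1 fell with both hormones, while 3 of the 7 were above 0 with FGF15 and 2 with FGF19. Their summed signal was 2120.9 to 2216.3 with FGF15 and 2151.9 to 2316.7 with FGF19, against 2520.2 to 2606.7 with vehicle. Of 8 endothelial markers Lyve1 alone fell with FGF15, where the median of the list was -0.06, beside -0.05 for all genes. With FGF19 that median was -0.18, beside -0.07. The summed endothelial signal was 1413.6 to 1450.5 with FGF15 and 1490.5 to 1531.6 with FGF19, against 1634.4 to 1673.2 with vehicle. Of 3 measured neutrophil markers S100a8 fell with both hormones and S100a9 with FGF15. No cholangiocyte or lymphocyte marker passed. Fabp2, a marker from the intestinal list, rose with both, and the erythroid marker Alas2 with FGF19. The FGF19 array of replicate 1 stood apart in its controls. Its mean signal for 18S ribosomal RNA was 29.3, against 9.99 to 12.6 on the other 5, and its ratio of 3′ to 5′ signal for β-actin was 1.63, against 1.3 to 1.39.

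Promoter sequences were examined for members with an annotated start in RefSeq GRCm38.p6. The table held 28 windows of 22 member genes, each the 250 bases before an annotated start, among 32851 such windows of all genes. The letters TCACNCCAC, a form of the sterol regulatory element that SREBPs bind, were found on either strand in 1 member window, that of Hmgcs1, and in 1.05% of all windows. CCAAT, the core of the NF-Y site, was in 20 of the 28 member windows and in 33.8% of all, GGGCGG, the core of the Sp1 site, in 22 and in 32.7%, and CACGTG, the E-box, in 5 and in 6.02%. NF-Y and Sp1 are known to act with SREBPs on their target promoters. A match is a description of letters and no evidence of binding. Sqle and Stard4, which fell with FGF19, and Fdps, Fdft1, Npc1 and Soat2 were not analysed for promoters here. The windows shown are those of the members that fell with FGF19 and have 1 window in the table (Hmgcs1, Idi1, Cyp51, Msmo1 and Srebf2), and the 3 windows of Insig2, the member that rose. In GRCm38.p6 they lie at chr13:119690101-119690350 (Hmgcs1, plus strand), chr13:8885356-8885605 (Idi1, plus strand), chr5:4104698-4104947 (Cyp51, minus strand), chr8:64733579-64733828 (Msmo1, minus strand) and chr15:82147019-82147268 (Srebf2, plus strand). Those of Insig2 are on the minus strand, at chr1:121332590-121332839, chr1:121328025-121328274 and chr1:121327679-121327928. Capitals mark TCACNCCAC and CCAAT on either strand, so that ATTGG is CCAAT read on the other strand, and each sequence runs 5′ to 3′ and ends just before the start.
Hmgcs1: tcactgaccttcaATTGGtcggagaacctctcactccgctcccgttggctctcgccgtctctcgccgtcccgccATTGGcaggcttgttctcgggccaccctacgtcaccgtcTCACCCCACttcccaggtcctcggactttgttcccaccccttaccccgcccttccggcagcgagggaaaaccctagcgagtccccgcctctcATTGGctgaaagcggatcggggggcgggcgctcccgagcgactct
Idi1: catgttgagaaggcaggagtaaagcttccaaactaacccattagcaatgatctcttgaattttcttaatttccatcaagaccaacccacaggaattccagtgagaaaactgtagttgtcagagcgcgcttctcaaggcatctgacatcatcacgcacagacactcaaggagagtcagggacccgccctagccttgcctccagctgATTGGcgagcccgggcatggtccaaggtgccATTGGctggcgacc
Cyp51: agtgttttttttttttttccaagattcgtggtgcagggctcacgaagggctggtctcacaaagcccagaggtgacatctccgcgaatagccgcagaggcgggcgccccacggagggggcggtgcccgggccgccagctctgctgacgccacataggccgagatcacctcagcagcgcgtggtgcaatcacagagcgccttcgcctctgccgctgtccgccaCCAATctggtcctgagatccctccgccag
Msmo1: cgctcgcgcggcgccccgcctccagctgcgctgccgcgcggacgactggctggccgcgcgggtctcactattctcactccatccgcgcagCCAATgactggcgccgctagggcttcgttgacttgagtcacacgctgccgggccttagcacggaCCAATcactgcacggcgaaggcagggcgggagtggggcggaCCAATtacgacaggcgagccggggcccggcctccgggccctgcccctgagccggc
Srebf2: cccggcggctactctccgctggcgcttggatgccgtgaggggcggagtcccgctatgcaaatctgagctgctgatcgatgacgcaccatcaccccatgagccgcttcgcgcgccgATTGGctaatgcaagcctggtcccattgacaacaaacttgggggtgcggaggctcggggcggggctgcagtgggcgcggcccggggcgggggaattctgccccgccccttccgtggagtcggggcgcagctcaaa
Insig2, upstream start: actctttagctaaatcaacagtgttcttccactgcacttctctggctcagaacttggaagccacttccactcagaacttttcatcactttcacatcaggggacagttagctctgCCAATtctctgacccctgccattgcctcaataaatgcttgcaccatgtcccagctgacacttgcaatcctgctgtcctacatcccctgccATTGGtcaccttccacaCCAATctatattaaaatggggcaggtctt
Insig2, middle start: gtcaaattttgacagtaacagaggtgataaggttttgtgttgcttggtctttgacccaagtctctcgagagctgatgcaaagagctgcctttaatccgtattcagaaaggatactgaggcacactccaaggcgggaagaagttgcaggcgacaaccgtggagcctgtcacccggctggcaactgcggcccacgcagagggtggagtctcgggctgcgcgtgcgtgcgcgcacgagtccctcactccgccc
Insig2, downstream start: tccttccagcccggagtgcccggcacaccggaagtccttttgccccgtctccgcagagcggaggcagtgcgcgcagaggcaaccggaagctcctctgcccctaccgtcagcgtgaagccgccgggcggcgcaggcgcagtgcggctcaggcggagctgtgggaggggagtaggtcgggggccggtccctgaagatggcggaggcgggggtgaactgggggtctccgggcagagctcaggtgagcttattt

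The sterol regulatory element of Hmgcs1 lies 137 bases before the start, between matches of CCAAT on either side of it. Idi1, Cyp51, Msmo1 and Srebf2 have CCAAT but no TCACNCCAC in these windows. TCACNCCAC was the only form of the sterol regulatory element searched for, so other forms inside a window were not counted. Of the Insig2 windows, the upstream one holds 3 matches of CCAAT and no GGGCGG, and the other 2 hold 1 match of GGGCGG each and no CCAAT. A window without a match says nothing of sequences outside it.

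Of the steps that lead to isoprenoids, 7 of 8 genes were measured. With FGF19, 2 of them fell, Hmgcs1 and Idi1, and with FGF15 only Hmgcs1 passed the test. Hmgcs1, the cytosolic synthase that makes HMG-CoA, had signals of 1882 and 1900.3 in FGF15 livers and of 1537 and 1483 in FGF19 livers, against 2486 and 2352 in vehicle livers. No array of one group overlapped another group, and the FGF15 livers lay between the other 2 groups. It fell 1.27-fold with FGF15 (log2 difference -0.35 ± 0.06 SE, adjusted p = 0.00567) and 1.59-fold with FGF19 (-0.67 ± 0.06, adjusted p = 0.0001). The probe set behind these values can hybridise with related transcripts. Hmgcs1 had 3 further probe sets, and with FGF19 all 4 fell, with log2 differences of -0.36 to -0.67. With FGF15 the other 3 differed by -0.09, -0.09 and -0.20 and did not pass the test. The fall with FGF19 therefore held for every Hmgcs1 probe set, and the fall with FGF15 rested on 1 of 4 and was lost without vehicle replicate 1 (adjusted p = 0.0811).

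Idi1, the isomerase that interconverts the isoprenoid building blocks, had signals of 1005 and 1075 in FGF15 livers and of 774 and 701 in FGF19 livers, against 937 and 1033 in vehicle livers. FGF15 and vehicle livers overlapped, and both FGF19 arrays lay under all the others. The fall with FGF19 was 1.32-fold (-0.40 ± 0.08, adjusted p = 0.00812), and the second probe set gave -0.66 ± 0.12. Without vehicle replicate 2 the adjusted p was 0.081. With FGF15 the difference was 0.08, with a 95% confidence interval of -0.10 to 0.25. The other 5 measured genes of these steps, the kinases Mvk and Pmvk, the decarboxylase Mvd and the prenyl synthases Fdps and Ggps1, passed the test with neither hormone. Their log2 differences ran between -0.23 (Mvk) and 0.24 (Mvd) with FGF15 and between -0.19 (Mvk) and 0.19 (Ggps1) with FGF19. Fdps was bright, with signals of 1882 and 1958 in FGF15 livers and of 1786 and 1875 in FGF19 livers, against 1820 and 2038 in vehicle livers. Its groups overlapped in both comparisons. Its intervals of -0.17 to 0.16 with FGF15 and -0.23 to 0.09 with FGF19 end above the Hmgcs1 estimates in the fit over genes. With FGF15, the other Hmgcs1 probe sets gave -0.09, -0.09 and -0.20, and those at -0.09 lie inside the Fdps interval.

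All 12 genes of the steps between farnesyl diphosphate and cholesterol were measured, and none rose in limma's adjusted test (at an unadjusted p under 0.05, 1 was higher with FGF15, Sc5d, and 0 with FGF19). With FGF19, 4 fell (Sqle, Cyp51, Msmo1 and Dhcr7), and with FGF15, 3 fell (Sqle, Msmo1 and Dhcr7). Sqle, the squalene epoxidase and a rate-controlling enzyme of the pathway, changed the most of all synthetic genes measured. Its signals were 398 and 347 in FGF15 livers and 289 and 269 in FGF19 livers, against 568 and 518 in vehicle livers. The 3 groups did not overlap. Sqle fell 1.42-fold with FGF15 (-0.51 ± 0.09, adjusted p = 0.0051) and 1.85-fold with FGF19 (-0.89 ± 0.09, adjusted p = 0.00017). The call with FGF15 was lost without vehicle replicate 1 (adjusted p = 0.0605), and that with FGF19 held whichever array was left out.

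Dhcr7, a reductase of the last steps, gave 497 and 537 in FGF15 livers and 420 and 439 in FGF19 livers, against 608 and 641 in vehicle livers. The groups again did not overlap. It fell 1.42-fold with FGF19 (-0.51 ± 0.07, adjusted p = 0.00161), while its 1.20-fold fall with FGF15 (-0.26 ± 0.07) stood just inside the threshold, at an adjusted p of 0.0498, and was lost whichever array was left out, at 0.0582 to 0.23. Msmo1 is a monooxygenase of the demethylation steps. It gave 735 and 880.4 in FGF15 livers and 775 and 751 in FGF19 livers, against 979 and 1049.6 in vehicle livers. All 4 hormone arrays lay under both vehicle arrays, with a wide gap between the FGF15 arrays. Its falls were 1.25-fold with FGF15 (-0.32 ± 0.09, adjusted p = 0.0396) and 1.32-fold with FGF19 (-0.40 ± 0.09, adjusted p = 0.0149). The call with FGF15 was lost without FGF15 replicate 1 and without any one of the FGF19 or vehicle arrays, and the call with FGF19 without any one of the FGF19 or vehicle arrays. The largest adjusted p over these fits was 0.207 with FGF15 and 0.108 with FGF19.

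Cyp51, the lanosterol demethylase, gave 488 and 538 in FGF15 livers and 427 and 444 in FGF19 livers, against 563 and 564 in vehicle livers. The FGF19 arrays were lowest, and the FGF15 arrays lay between them and vehicle. The fall was 1.27-fold with FGF19 (-0.35 ± 0.08, adjusted p = 0.0129), and the FGF15 difference was -0.13 (95% confidence interval -0.30 to 0.04). A second Cyp51 probe set gave -0.41 ± 0.09 with FGF19 and -0.06 ± 0.09 with FGF15, and the dimmest of the 3 gave -0.10 ± 0.17 and 0.11 ± 0.17. Without FGF19 replicate 1 or without either vehicle array the adjusted p with FGF19 was at most 0.0813 and over 0.05. Squalene synthase (Fdft1), lanosterol synthase (Lss), the sterol reductases Tm7sf2 and Lbr, the dehydrogenases Nsdhl and Hsd17b7, the isomerase Ebp and the desaturase Sc5d passed the test with neither hormone. The probe sets that stood for Fdft1 and Lss, like that of Ggps1, can hybridise with related transcripts. Their log2 differences lay between -0.18 (Fdft1) and 0.15 (Sc5d) with FGF15 and between -0.22 (Fdft1) and 0.19 (Tm7sf2) with FGF19.

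**Figure D2:**
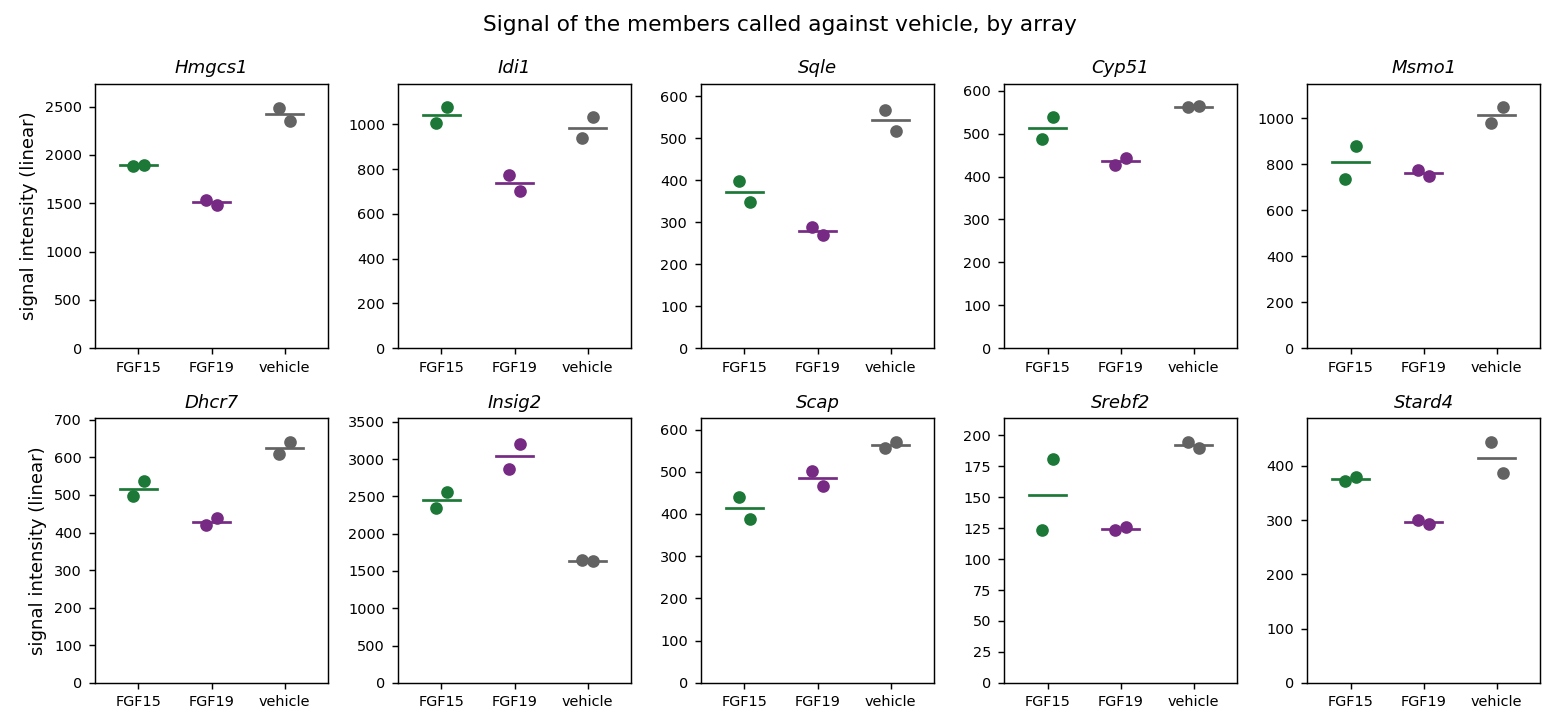
Signal intensity on a linear axis for the 10 members that passed the test against vehicle with at least 1 hormone, with 1 point per array and a line at the mean of each group of 2. In Hmgcs1, Sqle and Dhcr7 the order of the groups is FGF19, FGF15 and vehicle, with vehicle highest, and in Insig2 it is the reverse, with means of 3035, 2448 and 1637.

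Insig2, which codes for an endoplasmic reticulum protein that retains SCAP, was the single member that rose. It gave 2341 and 2556 in FGF15 livers and 2866 and 3204 in FGF19 livers, against 1643 and 1631 in vehicle livers. The 3 groups did not overlap. Insig2 rose 1.49-fold with FGF15 (0.57 ± 0.07, adjusted p = 0.00089) and 1.84-fold with FGF19 (0.88 ± 0.07, adjusted p = 5e-05). Its other 2 probe sets gave larger differences, of 0.76 ± 0.09 and 0.92 ± 0.06 with FGF15 and of 1.22 ± 0.09 and 1.29 ± 0.06 with FGF19. In mouse liver, a class of Insig2 transcripts is known to be specific to the organ and to be more abundant in fasting than after feeding, and the probe sets were not assigned to transcripts here.

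Scap gave 439 and 387 in FGF15 livers and 502 and 466 in FGF19 livers, against 557 and 571 in vehicle livers. Of the members that fell, it was the one whose FGF15 arrays both lay under its FGF19 arrays. It fell 1.34-fold with FGF15 (-0.42 ± 0.08, adjusted p = 0.00828), and its difference with FGF19 was -0.21 ± 0.08 (adjusted p = 0.126). Without FGF15 replicate 2 or either vehicle array, its adjusted p with FGF15 was over 0.05, at most 0.0644. Srebf2 gave 123 and 181 in FGF15 livers and 123 and 126 in FGF19 livers, against 194 and 190 in vehicle livers. The 2 FGF15 arrays were far apart, 1 at the level of FGF19 and 1 close to vehicle. The fall with FGF19 was 1.43-fold (-0.52 ± 0.14, adjusted p = 0.0379), and FGF15 gave -0.30 ± 0.14 (adjusted p = 0.208), or an adjusted p of 0.0338 without FGF15 replicate 2. The other Srebf2 probe set, dimmer, gave -0.15 ± 0.13 with FGF19 and did not pass. The call with FGF19 was also lost without any one of the FGF19 or vehicle arrays. Leaving out 1 array gave log2 differences of -0.53 to -0.5. Among the other settings, this call was lost under quantile normalization, cyclic loess, centring on array medians and the mean of all probe sets. Leaving out the filter or the intensity trend also lost it.

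Of the 3 measured genes of sterol transport, 1 fell, with FGF19. Stard4, a cytosolic carrier of sterols and an SREBP2 target, gave 372 and 379 in FGF15 livers and 300 and 294 in FGF19 livers, against 444 and 387 in vehicle livers. The FGF19 arrays lay under all the others, and the FGF15 arrays lay close under the lower vehicle array. It fell 1.36-fold with FGF19 (-0.44 ± 0.08, adjusted p = 0.00732), and FGF15 gave -0.13 (95% confidence interval -0.32 to 0.06). Without vehicle replicate 1 the adjusted p with FGF19 was 0.0784. The other Stard4 probe set gave -0.37 ± 0.11 with FGF19 (adjusted p = 0.0552) and 0.05 ± 0.11 with FGF15, and passed with neither. Npc1 and Npc2, which together move cholesterol out of lysosomes, did not pass the test. Npc2 was nearest to it, at -0.23 ± 0.07 with FGF15 (adjusted p = 0.0525), and differed by -0.12 ± 0.07 with FGF19. Macrophages also express Npc2, and the summed signal of their markers was lower in both hormone groups. The part of that in any difference of a member was not tested.

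The results that rest on FGF19 replicate 1, the array with the brighter ribosomal RNA controls, were repeated without it. That leaves 1 FGF19 array, which the fit assumes to vary like the arrays of the other groups, and the same holds for each group when an array of it is left out. Insig2 then rose by 0.96 ± 0.07 (adjusted p = 0.00013), and Sqle (-0.93), Hmgcs1 (-0.69), Dhcr7 (-0.48), Idi1 (-0.47) and Stard4 (-0.46) still fell. Cyp51, at -0.32, and Msmo1, at -0.42, no longer passed, at adjusted p of 0.0754 and 0.0542, nor did Srebf2, at -0.50 (adjusted p = 0.153). Without vehicle replicate 1, 4 members fell with FGF19 (Dhcr7, Hmgcs1, Idi1 and Sqle), and no member fell with FGF15 in limma's adjusted test (6 at an unadjusted p under 0.05), while Insig2 rose with both. Without vehicle replicate 2, 4 fell with FGF19 (Dhcr7, Hmgcs1, Sqle and Stard4) and 2 with FGF15 (Hmgcs1 and Sqle). Without either vehicle array, fewer of all genes fell as well, with both hormones, so the loss was not particular to the members. Insig2 with either hormone, and Hmgcs1, Sqle and Dhcr7 with FGF19, passed the test under each of 19 alternative settings. With every array centred on its own median, Dhcr7, Hmgcs1 and Sqle fell with FGF19, Sqle and Scap fell with FGF15, and Sc5d passed as higher with FGF15.

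Over single probe sets, 46 of the members' 49 passed the filter and were tested among 16969. With FGF15, 3 rose and 4 fell, where 4.73% of all probe sets rose and 5.81% fell. With FGF19, 3 rose and 15 fell, and the percentages of all probe sets were 5.15 and 6.34. The 3 that rose were the probe sets of Insig2 in both comparisons, and the 15 that fell with FGF19 came from 10 genes. They included Hsd17b7, a ketoreductase of the demethylation steps, and Sc5d, the desaturase of lathosterol, through a probe set that did not stand for the gene in the fit over genes. Sc5d gave 201 and 122 with FGF15 and 86.1 and 82.1 with FGF19, against 157 and 163 with vehicle, on this dimmer probe set. It fell by 0.73 on the log2 scale with FGF19 (SE 0.17, adjusted p = 0.0248), where the brighter Sc5d probe set differed by -0.05 ± 0.07. The dimmer Hsd17b7 probe set differed by -0.42 ± 0.11 with FGF19 (adjusted p = 0.0297) and the brighter one by -0.16 ± 0.12. For both genes the call differed between probe sets, and the calls over genes follow the brighter one. The intervals of the 2 Hsd17b7 probe sets overlapped (-0.66 to -0.19 and -0.43 to 0.11), and a difference between probe sets was not tested.

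**Figure D3:**
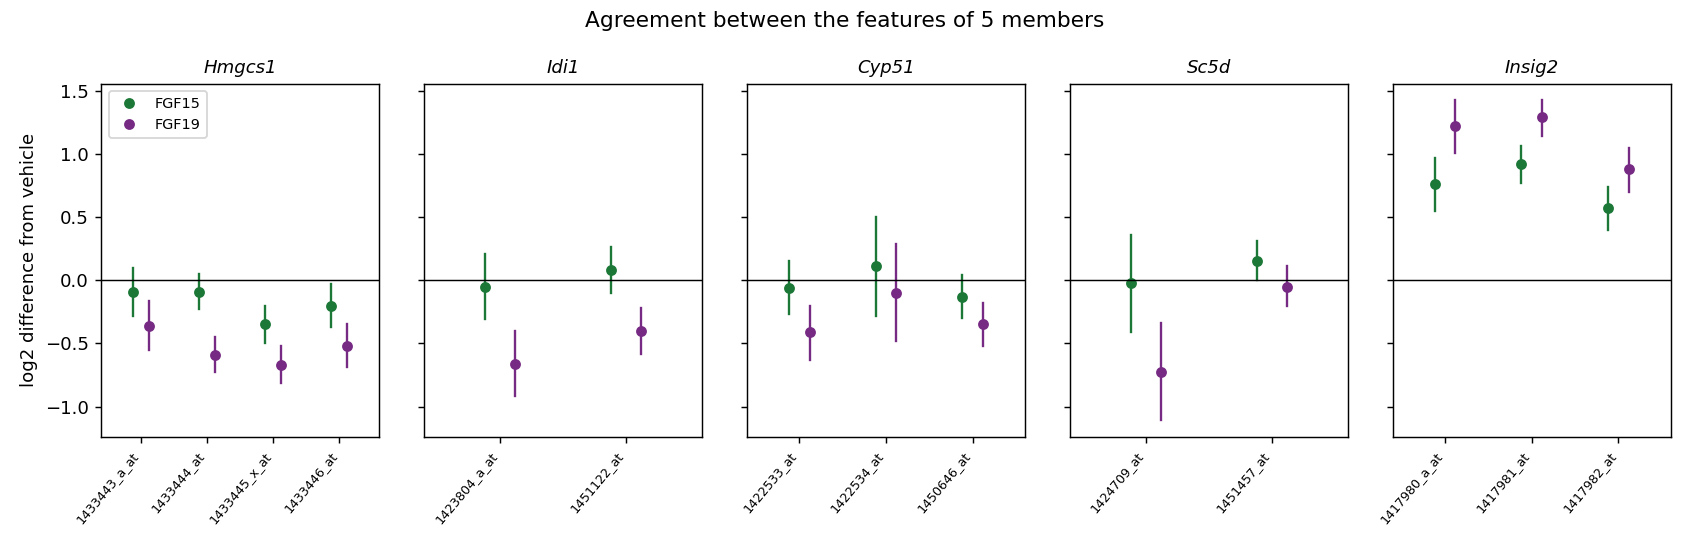
Log2 difference from vehicle for every probe set of Hmgcs1, Idi1, Cyp51, Sc5d and Insig2 that was tested, with FGF15 in green and FGF19 in purple and bars of 95% confidence intervals. Sc5d, added after its values were seen, has 1 probe set at -0.73 and 1 at -0.05 with FGF19, while the 4 of Hmgcs1 and the 2 of Idi1 all lie under 0 with FGF19 and the 3 of Insig2 all lie above 0 with both hormones.

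The hormones were also set against each other, which uses no vehicle array for the difference itself. In FGF19 livers, 3 members were lower than in FGF15 livers and none was higher in limma's adjusted test (2 at an unadjusted p under 0.05, Insig2 and Scap), where 1.89% of all genes were lower and 2.41% higher. The 3 were Idi1 (-0.48 ± 0.08, adjusted p = 0.00635), Hmgcs1 (-0.32 ± 0.06, adjusted p = 0.0183) and Sqle (-0.38 ± 0.09, adjusted p = 0.047). Idi1 was lower 1.39-fold, and its 2 probe sets both passed. Sqle was close to the threshold, and its call was lost without either FGF19 array, without either vehicle array or without FGF15 replicate 1, at an adjusted p of up to 0.242. The Idi1 call was lost without FGF15 replicate 2 (adjusted p = 0.0529), and that of Hmgcs1 without either FGF15 array (0.0923 and 0.0937). Over the 25 members the median difference of FGF19 minus FGF15 was -0.07, beside -0.02 for all genes.

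Insig2 was higher with FGF19 than with FGF15 by 0.31 ± 0.07 and missed the threshold at an adjusted p of 0.0522. In the fit over probe sets its other 2 probe sets passed, at 0.46 ± 0.09 (adjusted p = 0.0261) and 0.37 ± 0.06 (adjusted p = 0.0115). These were the only 2 of the members' probe sets that were higher with FGF19 than with FGF15, and 4 were lower, 2 of Hmgcs1 and 2 of Idi1, where 1.97% of all probe sets were higher and 1.34% lower. Stard4 (-0.31 ± 0.08, adjusted p = 0.0776), Dhcr7 (-0.25 ± 0.07, adjusted p = 0.103) and Cyp51 (-0.22 ± 0.08, adjusted p = 0.158) did not pass. Scap ran the other way, at 0.21 ± 0.08 (adjusted p = 0.216). The interval for Msmo1, of -0.27 to 0.12, holds both no difference and a difference of the size seen in Cyp51.

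**Figure D4:**
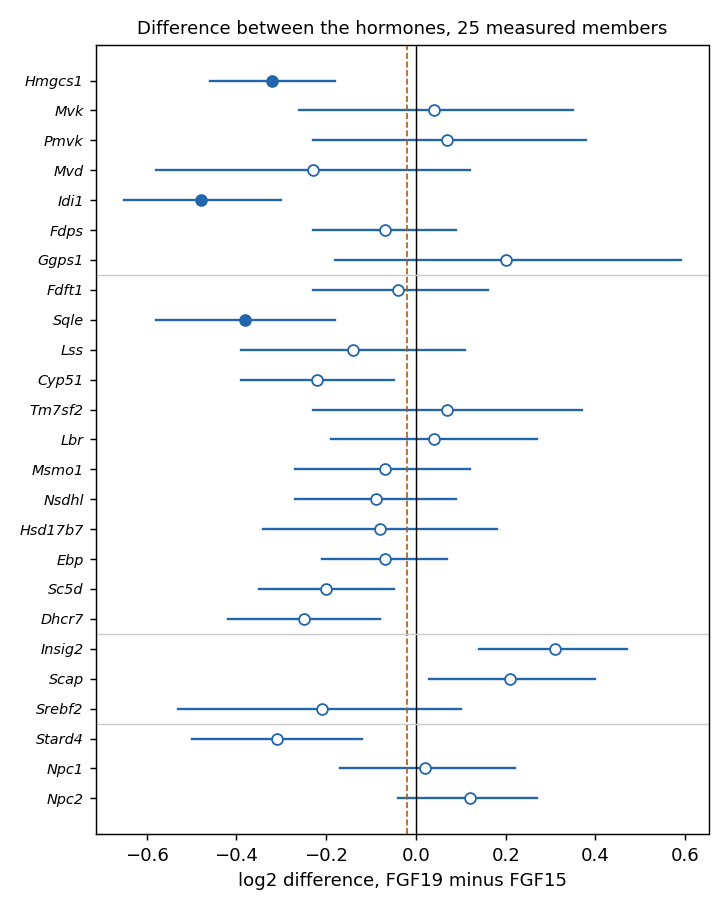
Log2 difference of FGF19 livers minus FGF15 livers for the 25 measured members, with 95% confidence intervals, the median of all genes as a dashed line and filled points for members that passed the test. Idi1 at -0.48, Sqle at -0.38 and Hmgcs1 at -0.32 are the filled points, and Insig2 at 0.31 is the highest.

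Genes that are not members but belong to the wider sterol and lipid system were read from the same fit. Of 10 measured genes of SREBP processing and other sterol-responsive genes, 3 rose with FGF15 and 2 with FGF19, and 0 fell with either (1 with each at an unadjusted p under 0.05). Those 3 were Aacs, which activates acetoacetate for lipid synthesis (0.82 with FGF15 and 0.40 with FGF19), Hsd17b12, an enzyme of fatty acid elongation (0.31 and 0.40), and Idh1, the cytosolic isocitrate dehydrogenase (0.45 and 0.34, the second not past the test, from a probe set that can hybridise with related transcripts). Erlin1 had -0.13 and -0.25 and passed with neither. Of these rises, that of Aacs with FGF15 held whichever array was left out (adjusted p at most 0.0104), and the others did not. The count with FGF15 was 1 without FGF15 replicate 2, without vehicle replicate 2 or without the intensity trend, and with FGF19 it was 1 without any one of the FGF19 or vehicle arrays and 0 without the intensity trend. The median of the list was -0.03 with FGF15 and -0.04 with FGF19.

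Of 13 measured genes of fatty acid synthesis and its regulator SREBP1, 5 rose and 1 fell with FGF15, and 8 rose and 0 fell with FGF19 (1 at an unadjusted p under 0.05). Srebf1, the gene of that regulator, was the one that fell with FGF15 (-0.67 ± 0.07) and was among those that rose with FGF19 (0.67 ± 0.07), and it was higher with FGF19 than with FGF15 by 1.34 ± 0.07 (adjusted p = 5.35e-06). The medians were 0.11 with FGF15 and 0.26 with FGF19. Me1, the malic enzyme, was higher by 0.97 and 1.09, Fasn, fatty acid synthase, by 0.33 and 0.85, Elovl6, an elongase, by 0.91 and 0.39, and Acly, ATP citrate lyase, by 0.63 and 0.27. The count of rises with FGF19 was 4 without vehicle replicate 2 or without the intensity trend and 5 without vehicle replicate 1. With FGF15 it was 3 without FGF15 replicate 2, without vehicle replicate 1 or without the intensity trend. The calls of Fasn with FGF15 and of Elovl6 and Acly with FGF19 were among those lost, at adjusted p of up to 0.128, 0.104 and 0.115. Among 8 LXR and sterol efflux genes, 1 rose and 1 fell with FGF15, and 3 rose with FGF19, with medians of -0.14 and 0.18. Pltp, the phospholipid transfer protein, was higher by 0.68 and 1.71 on a probe set with the same limit. Abca1, the cholesterol efflux pump, differed by 0.01 with FGF15 and rose by 0.50 with FGF19, and Abcg5, which with its partner exports sterols into bile, fell with FGF15 (-0.32) and rose with FGF19 (0.34). The fall was lost without any one of the FGF15 or vehicle arrays (adjusted p up to 0.189), without the intensity trend and with centring on array medians. The rise was lost without FGF19 replicate 1 or vehicle replicate 2 (up to 0.134) and without the intensity trend. The difference of Abcg5 between FGF19 and FGF15, 0.66 ± 0.08, passed whichever array was left out. Lpcat3 passed with neither against vehicle, at -0.09 and 0.24.

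Sterol storage, uptake and catabolism held 16 measured genes, of which 2 rose and 5 fell with FGF15 and 1 rose and 6 fell with FGF19, with medians of -0.04 and -0.13. Scarb1, the receptor for high-density lipoprotein, fell with both (-0.56 with FGF15 and -0.30 with FGF19), the second call being lost without FGF19 replicate 2 or either vehicle array (adjusted p up to 0.14). Beside Cyp7a1, the bile acid enzymes Cyp7b1 (-1.16 and -1.21) and Cyp8b1 (-0.88 and -1.11) fell. Each of these 3 enzymes had a larger fall in log2 units than any member with the same hormone. Hsd3b7 also fell with both and Stard5 with FGF19, Osbp rose with both and Osbpl1a with FGF15. Of these 6 calls, those of Stard5 and of Osbp with FGF15 held whichever array was left out. Without vehicle replicate 1 the falls numbered 4 with either hormone. Hsd3b7, Stard5, Osbp, Osbpl1a and Srebf1 were named after their values were seen.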

How the data were processed

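Biotin-labelled liver RNA had been hybridised to Affymetrix Mouse Genome 430A 2.0 arrays, which use 1 colour, and the deposited signal intensities, linear and 1 per probe set and array, were the starting point. The authors had scaled each deposited array, as its values show, to a trimmed mean intensity of about 200.1. How probes were summarised is not given in the sources used here. Signals were used as log2(signal + 32) with no further scaling. GEO's platform annotation, updated through Entrez identifiers, paired 20380 probe sets with 1 gene, 691 with several and 1555 with none, besides 64 controls. Each of 12393 genes was represented by its probe set of highest mean. The 25% of probe sets with the lowest mean, under a signal of about 14.0, were left out, which kept 9685 genes for testing and dropped 2708.

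A linear model, with group as its only term, was fitted to all 6 arrays (limma 3.58.1, R 4.3.3) and its variances were moderated by eBayes with a trend on intensity, giving 3 residual and 6.83 prior degrees of freedom. Two-sided p-values were adjusted by Benjamini-Hochberg over all genes of a comparison, or over 16969 probe sets in the fit by probe set. Errors are limma's standard errors (n = 2 arrays a group, or 1 where an array is left out), with a median of 0.13, and precision is limited by how few arrays there were. The steps were tested on simulated data. All measured members are described. Of each other list up to 4 genes with the smallest p are named, and Cyp7a1, Nr0b2, Dusp6 and Egr1 as checks. The members and lists were chosen with earlier results of these data known. Figures were drawn with matplotlib 3.10.9.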

Additional observations from a re-analysis of the deposited data

Results flagged for a closer look

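The 18S ribosomal RNA controls, which no comparison used, had a mean signal of 29.3 on the FGF19 array of replicate 1, against 9.99 to 12.6 on the other 5 arrays, vehicle included. Its part in the results was not tested beyond leaving the array out, after which Insig2 rose and 5 members fell with FGF19. Those calls rest on a single FGF19 array, taken to vary like the arrays of the other groups.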

How the results depend on the processing

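Of 1425 values of members under 19 alternative settings, 342 belonged to the 18 results called in the main fit, and 73 of these 342 lost the call. Over all 1425 values, 1335 kept their side of the threshold and 17 gained a call. No called value changed sign. Centring on array medians gave 2 members higher and 2 lower with FGF15, 3 lower with FGF19, and 1 lower with FGF19 against FGF15. Over all genes it gave 1007 higher and 356 lower with FGF15, against 572 and 646 without centring, and 1214 and 329 with FGF19, against 609 and 704. Without the intensity trend, 1 member was lower with FGF15, 3 with FGF19 and 0 with FGF19 against FGF15 (5 at an unadjusted p under 0.05), and over all genes 242 rose and 393 fell with FGF15, 297 rose and 434 fell with FGF19, and 110 were higher and 53 lower with FGF19 against FGF15. With no filter, or with only the arrays compared, 3 members fell with FGF15, where 483 and 617 of all genes fell. Insig2 was the 1 member higher with FGF19 than with FGF15 under quantile normalization, cyclic loess, the filter at the 50th percentile, the mean of all probe sets, all probe sets, the threshold of 0.10 and the replicate block. Over all genes, 220 to 349 were higher under these settings. The mean of all probe sets gave 5 members and 188 of all genes lower with FGF19 than with FGF15. At a threshold of 0.10, 976 genes fell with FGF15, 1108 with FGF19, and 350 were lower with FGF19 than with FGF15.

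Without 1 array, the members that fell with FGF15 numbered 0 to 4, with FGF19 4 to 8, and with FGF19 against FGF15 1 to 2, and 1 to 1, 1 to 1 and 0 to 1 rose. Over all genes 271 to 577 rose and 267 to 622 fell with FGF15, 316 to 613 rose and 283 to 747 fell with FGF19, and 137 to 192 were higher and 97 to 170 lower with FGF19 against FGF15.

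Replicate numbers are shared by the groups, but the labels do not say that they pair the arrays. Deviations of same-numbered arrays correlated at 0.081 for FGF15 and vehicle, -0.022 for FGF19 and vehicle and 0.05 for FGF19 and FGF15. With the replicate number as a block, 1 member rose and 5 fell with FGF15, and 1 rose and 8 fell with FGF19. Over all genes this block gave 581 rises and 665 falls with FGF15, and 625 rises and 755 falls with FGF19. For FGF19 against FGF15, 1 member was higher and 3 lower, and over all genes 242 were higher and 208 lower. Causes of the changes between settings were not tested. Dim probe sets, such as those of Mvd and Ggps1, have wide intervals, and 2 arrays a group cannot show small differences there.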
